A study of Mus musculus with 15 samples.

Results

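The comparison described here is between the MII oocytes of mice aged 10–12 months (10–12 m) and of mice aged 6–8 months (6–8 m), with 3 samples in each group, which makes 6 of the 15 samples of the series. The samples were chosen by the age and stage in their titles, and all 333 genes of the deposited count tables were included. All mice were C57BL/6 females. Those of the 2 older groups were retired breeders, while the 8–10 w mice used below as a younger reference (3 samples) were virgins. In every group the mice were superovulated with PMSG and hCG, and the oocytes were freed of cumulus cells and sequenced as pools after Smart-Seq2 amplification, which starts from the poly(A) tail. Each value is therefore an average over a pool, and fewer oocytes holding a transcript cannot be told apart from less of it in each oocyte. A difference in poly(A) tails cannot be told apart from one in the amount of mRNA either. Nothing in the sources used here states which animals contributed to which pool, so p-values measure only the spread between these samples. The protocol text of the labels speaks of 2-cell embryos for these samples too, and the stage was taken from the titles and the study's methods.

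MII oocytes are arrested at the second meiotic metaphase and make almost no new RNA, so that their mRNA is a store laid down during growth and used or degraded until the embryonic genome is activated. Splicing itself is done by the spliceosome, which is assembled on each intron from the U1, U2, U4, U5 and U6 small nuclear ribonucleoproteins (snRNPs). U1 marks the 5′ splice site, U2 the branch point, the U4/U6.U5 tri-snRNP brings in the catalytic RNAs, and the Prp19 complex stabilises the active form. SR proteins and hnRNPs decide which sites are used, and kinases of the CLK and SRPK families set the activity of SR proteins. Of the 333 genes, 253 were placed in 15 lists of splicing and related RNA-processing roles, and 80 in no list. How the 333 genes were chosen is not stated in the sources used here.

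The library size, taken as the reads on listed genes, on no listed gene and on more than 1 listed gene, was 16609142, 14450080 and 17472221 for samples 1, 2 and 3 of the 6–8 m group and 18722138, 17276441 and 14643083 for those of the 10–12 m group. Reads on the listed genes made up only 1.82%, 1.84% and 1.93% of it at 6–8 m and 1.90%, 1.92% and 1.88% at 10–12 m. Between 321 and 323 listed genes had at least 1 read in a library. The 2 groups thus had nearly the same depth and the same number of genes detected. None of the 14 oocyte, 10 cumulus and granulosa or 5 blood marker genes looked for is among the listed genes, so that the tissue label and the removal of cumulus cells could not be checked by them. Of the germ-cell genes that are listed, Lin28a had 32.7, 27.5 and 21.9 CPM (read counts scaled to library size with TMM factors) at 6–8 m and 21.8, 26.1 and 22.8 CPM at 10–12 m, and Ybx2 had 1.78 to 2.26 CPM at 6–8 m and 1.77 to 1.88 CPM at 10–12 m. Of 9 neural splicing regulators looked for, which an oocyte should hold little of, 5 are listed and were near the floor, with 7 to 23 reads for Nova1, 2 to 13 for Celf3, 2 to 7 for Celf4, 0 to 5 for Rbfox3 and 0 to 4 for Srrm4 in a library.

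The libraries of a group were not equally alike. Over the 152 genes with more than 20 CPM, the root mean square difference of log2 values (with 0.5 CPM added) was 0.170 between samples 1 and 2 of the 6–8 m group but 0.252 and 0.195 between these and sample 3. In the 10–12 m group it was 0.122 between samples 1 and 2, and 0.231 and 0.234 between these and sample 3. Over these genes the third sample of each group was therefore the furthest from the others. Over all 293 genes tested this was not clear at 6–8 m. There the value was 0.297 between samples 1 and 2, 0.304 between samples 2 and 3, and 0.360 between samples 1 and 3. Sample 3 of the 6–8 m group lay 0.155, 0.177 and 0.196 from the 3 samples of the 10–12 m group, which is nearer than its own group for 2 of the 3, and for all 3 nearer than its distance from the first 6–8 m sample. Across the 6 libraries the mean distance between groups (0.226) exceeded the mean distance within groups (0.200) by 0.0258, and a one-sided exact permutation test gave p = 0.2, where 0.1 is the smallest value that 3 against 3 samples allow. Over all 293 genes tested the difference was 0.00696 (one-sided exact permutation p = 0.5). Results that rest on the third samples are given below with and without them.

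**Figure D1:**
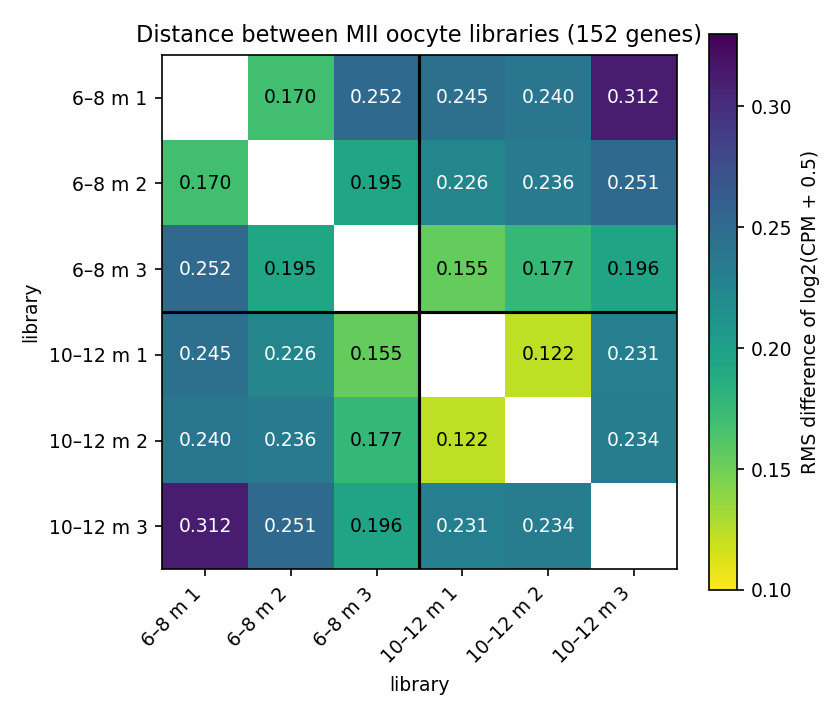
Root mean square difference of log2(CPM + 0.5) between each pair of the 6 MII oocyte libraries over 152 genes with a mean above 20 CPM, with black lines between the age groups. The lowest value is 0.122 between samples 1 and 2 of the 10–12 m group, and the third 6–8 m sample is 0.155 from the first 10–12 m sample but 0.252 from the first sample of its own group.

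Some shares of reads also did not overlap between the groups, before any gene was compared. Reads aligned with low quality made up 40.0%, 41.5% and 38.9% of all reads at 6–8 m and 37.4%, 37.8% and 37.6% at 10–12 m. In samples 1, 2 and 3 at 8–10 w it was 41.0%, 40.6% and 38.2%. The third sample of each younger group thus lay nearest the 10–12 m range. Whether this class follows age or the sample number was not tested. The share of reads on no listed gene was 38.2%, 35.8% and 37.4% at 6–8 m and 39.8%, 39.4% and 40.3% at 10–12 m. In both classes the groups did not overlap, with means of 40.1 ± 1.32% and 37.6 ± 0.220% for low quality (SD, n = 3, exact permutation p = 0.1, the smallest possible, adjusted p = 0.233 over 7 read measures). Reads on more than 1 listed gene were few, with 13, 14 and 14 at 6–8 m and 6, 10 and 2 at 10–12 m. Their share of the library did not overlap either (exact permutation p = 0.1, adjusted p = 0.233). The part of these shifts in the gene results was not tested. Genes with near-identical copies or processed pseudogenes, such as Npm1, Snrpg, Magoh and Ybx1 and the pair Hspa1a and Hspa1b, could lose reads to other positions in the genome. This was not measured for any gene, and their values are uncertain for this reason.

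The first question was whether any of these genes differed in measured mRNA level between the 2 older groups. No gene was called. Of the 293 genes with enough reads to be tested, 0 exceeded 1 in log2 fold change at an adjusted p-value below 0.05 (0.0% of genes tested) and 0 reached that p-value at any fold change (0.0%) in the quasi-likelihood test of edgeR, against 31 with an unadjusted p-value below 0.05 (10.6%) in edgeR and 27 in DESeq2. Of the 31 genes, 20 were higher at 10–12 m (6.83%) and 11 were lower (3.75%). The median log2 fold change of all genes tested was 0.01, with 155 genes above 0 and 138 below. Fold changes were small throughout: 226 genes (77.1%) lay within 0.25 of 0 on the log2 scale, 14 exceeded 0.5 in size and 0 exceeded 1. The largest in size was −0.91 for Pabpc1, the cytoplasmic poly(A)-binding protein, from 12, 15 and 18 reads at 6–8 m and 14, 4 and 7 reads at 10–12 m, where the groups overlapped.

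The 95% confidence intervals limit the size of a change. The interval lay within a log2 fold change of 1 in either direction for 259 genes (88.4%) and within 0.5 for 165 genes (56.3%), with a median half-width of 0.30. In the 89 genes above 50 CPM the median half-width was 0.21, and in the 43 genes below 2 CPM it was 0.88. The narrowest intervals belonged to well expressed genes: G3bp2 (−0.22 to 0.09), a stress granule protein, Zcchc8 (−0.11 to 0.22), a subunit of the nuclear exosome targeting complex, Hnrnpc (−0.14 to 0.20), which binds uridine tracts in introns, Brdt (−0.08 to 0.26), a bromodomain protein best known from the testis, and Srpk2 (−0.06 to 0.29), an SR protein kinase. For these 5 genes a change of even 0.5 lay outside the interval. The widest belonged to genes with few reads, namely Cdc5l (−1.80 to 1.63) and Ppil1 (−1.59 to 1.02) of the Prp19 list, Aar2 (−1.78 to 0.81), Scnm1 (−1.26 to 1.29) and Rbmxl1 (−0.88 to 1.39). Cdc5l had 0.00 to 1.04 CPM at 6–8 m and 0.14 to 0.97 CPM at 10–12 m, and for it a difference of 2-fold was not detectable at this depth.

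**Figure D2:**
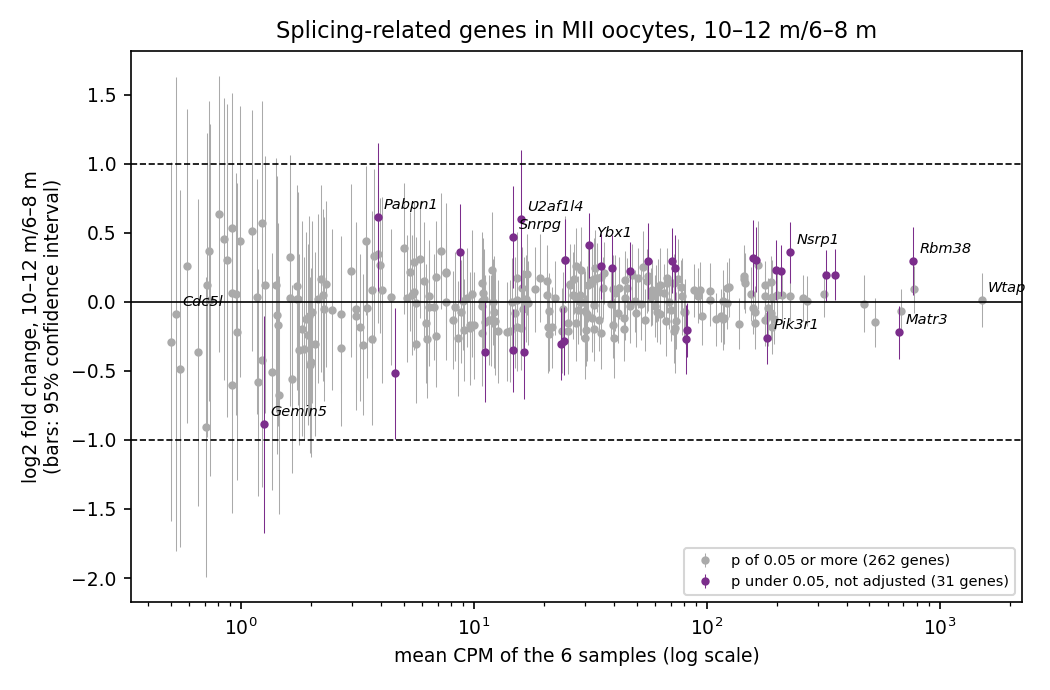
Log2 fold change (10–12 m/6–8 m) of each of the 293 genes tested against its mean CPM in the 6 MII oocyte samples on a log scale, with 95% confidence intervals as bars, dashed lines at −1 and 1, and the 31 genes with an unadjusted p-value below 0.05 in purple. No point lies beyond the dashed lines, and intervals widen toward genes with few reads.

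The 6 samples fell into separate groups for few genes. In 16 genes every 10–12 m sample was above every 6–8 m sample (5.46% of genes tested), and in 20 genes every one was below (6.83%). Of these 36 genes, 27 were also without overlap when TMM was left out and when the sum over listed genes was the library size, and 9 overlapped in at least 1 of these scalings (Aqr, Clk1, G3bp2, Rbfox2, Sf3b1, Srpk2, Thoc3, Usb1 and Zranb2). The smallest p-value of the whole comparison belonged to one of them, Ybx1 (chr4:119277981-119294604 in GENCODE vM21 on GRCm38), which encodes a cold shock domain protein that coats mRNA. Ybx1 had 25.6, 26.4 and 28.8 CPM at 6–8 m and 37.6, 34.0 and 35.8 CPM at 10–12 m. The lowest 10–12 m sample was thus well above the highest 6–8 m one. The 8–10 w samples, from virgin mice, were lower still, at 21.4 to 23.5 CPM. Those values come from scaling all 9 MII samples together, unlike the values above. The log2 fold change (10–12 m/6–8 m) was 0.41 ± 0.11 (SE, n = 3 per group, edgeR adjusted p = 0.45).

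**Figure D3:**
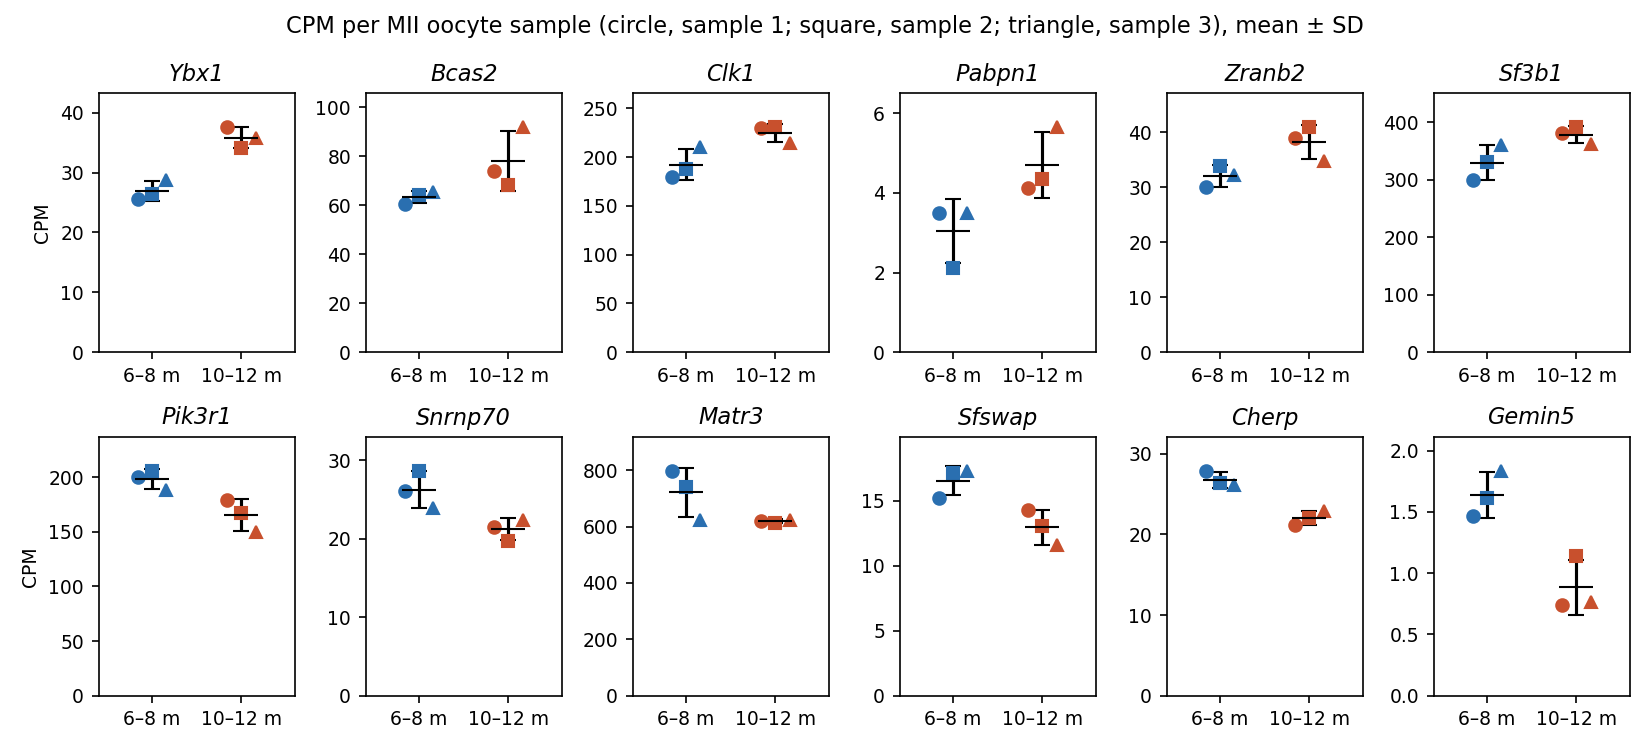
CPM in each of the 6 MII oocyte samples for the 6 higher and the 6 lower genes with the smallest p-values among those whose groups do not overlap, with the mean ± SD of each group in black and axes that start at 0. Ybx1 stands at 25.6 to 28.8 CPM at 6–8 m and 34.0 to 37.6 CPM at 10–12 m, while the groups of Matr3 nearly touch at 625 and 623 CPM. Those of Clk1, Sf3b1 and Zranb2 overlapped under another scaling.

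Among the genes of U1 (9 of 10 tested), 4 had a log2 fold change above 0 and 5 below, with a median of −0.02, and 0 reached an adjusted p-value under 0.05 in edgeR. Snrnp70, which encodes the U1-70K protein that holds U1 together, had 26.1, 28.7 and 23.98 CPM at 6–8 m and 21.6, 19.7 and 22.4 CPM at 10–12 m. Its groups did not overlap, but the gap was small beside the spread, and the log2 fold change was −0.31 ± 0.12 (SE, edgeR adjusted p = 0.45).

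The Sm and LSm proteins form the rings that are the core of every snRNP. Of 16 such genes 14 were tested, of which 10 had a log2 fold change above 0, and their median of 0.20 was the furthest from 0 of the lists with more than 5 genes tested, beside 0.01 for all genes. It was 0.32 without the third 6–8 m sample and 0.12 without the third samples of both groups, and 0.07 without the third 10–12 m sample alone. Summed over the list the level was 507, 543 and 567 CPM at 6–8 m and 551, 537 and 676 CPM at 10–12 m, so that 1 old sample was high and the groups otherwise overlapped. Snrpg (chr6:86371304-86379328) had 9.73, 11.2 and 16.02 CPM at 6–8 m and 15.998, 16.4 and 19.1 CPM at 10–12 m, where the third 6–8 m sample sat at the level of the old samples. The log2 fold change was 0.47 ± 0.17 (SE, edgeR adjusted p = 0.45). Snrpd1, with the most CPM of the list, had 124, 134 and 152 CPM at 6–8 m and 146, 141 and 173 CPM at 10–12 m. The ring members Snrpb and Snrpd2 had at most 13 reads in any of the 6 libraries and were not tested.

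In the U2 list, where branch point and 3′ splice site are recognised, all 23 genes were tested. Of these, 14 had a log2 fold change above 0 and 9 below (median 0.05), and 4 had an unadjusted p-value below 0.05 (17.4%, beside 10.6% of all genes). Snrpb2, the U2-B″ protein, had 144, 137 and 157 CPM at 6–8 m and 157, 169 and 217 CPM at 10–12 m, with a log2 fold change of 0.31 ± 0.11, or 0.15 without the third 10–12 m sample. Sf3b1 (chr1:54985169-55027481), the large subunit of SF3b that clamps the branch point, had 300, 330 and 360 CPM at 6–8 m and 381, 391 and 363 CPM at 10–12 m. Its groups did not overlap, but the third samples of both groups were nearly equal, and the groups overlapped under both other scalings. U2af1l4, a relative of the small U2AF subunit, had 10.2, 9.75 and 17.8 CPM at 6–8 m and 14.8, 16.2 and 26.9 CPM at 10–12 m, so that sample 3 was high in both groups. Its exons overlap those of Psenen on the opposite strand, and whether the counting used strand is not given in the sources used here. Cherp, a U2-associated regulator, was lower in every old sample, with 27.9, 26.4 and 26.1 CPM at 6–8 m and 21.2, 22.0 and 22.9 CPM at 10–12 m.

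Puf60 and Sf1 also belong to the U2 list. Puf60, which the study names and which binds uridine tracts together with U2AF, had 12.97, 10.9 and 8.01 CPM at 6–8 m and 9.32, 10.0 and 8.86 CPM at 10–12 m. Its groups overlapped fully, and the log2 fold change was −0.17 (95% interval −0.56 to 0.22, edgeR adjusted p = 0.69). It was −0.34 without sample 3 and −0.00024 without sample 1 of the 6–8 m group, so that single libraries set its size. Sf1, the branch point binding protein, had 10.3, 10.2 and 7.51 CPM at 6–8 m and 9.75, 6.85 and 6.56 CPM at 10–12 m, also with overlap.

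The genes of the U4/U6.U5 tri-snRNP (23 of 23 tested) had a median log2 fold change of −0.04, with 10 above 0 and 13 below, and a summed level of 847 to 871 CPM at 6–8 m and 849 to 869 CPM at 10–12 m. The summed level of the list thus overlapped between the groups. Only 1 member had an unadjusted p-value below 0.05 (4.35%, beside 10.6% of all genes). This was Ubl5, a ubiquitin-like protein that binds tri-snRNP components, with 40.7, 48.2 and 61.3 CPM at 6–8 m and 58.1, 61.5 and 64.9 CPM at 10–12 m. Snrnp27, with the highest CPM of the list, had 214 to 230 CPM and 218 to 252 CPM.

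Of the Prp19 complex and the factors of the catalytic steps, 28 of 29 genes were tested, and 18 had a log2 fold change above 0 and 10 below (median 0.05). Of all 28, 5 had an unadjusted p-value below 0.05 (17.9%, beside 10.6% of all genes), of which 3 were higher and 2 lower at 10–12 m. Bcas2, a core subunit of the Prp19 complex, had 60.6, 64.2 and 65.5 CPM at 6–8 m and 74.0, 68.5 and 91.9 CPM at 10–12 m, and its log2 fold change was 0.30 ± 0.11 (SE, edgeR adjusted p = 0.45), or 0.17 without the third 10–12 m sample. Syf2, another factor of this complex and the one with the highest CPM, had 293, 306 and 310 CPM at 6–8 m and 323, 335 and 381 CPM at 10–12 m. Both genes were higher in every old sample. Slu7, needed for the choice of the 3′ splice site in the second step, had 40.8, 42.3 and 43.0 CPM at 6–8 m and 48.8, 45.2 and 46.5 CPM at 10–12 m, again without overlap (log2 fold change 0.16, interval −0.06 to 0.37). Of this list 3 genes were higher and 3 lower in every old sample (10.7% each, beside 5.46% and 6.83% of all genes). Tfip11, which takes part in spliceosome disassembly, had 5.94, 4.98 and 5.34 CPM at 6–8 m and 4.34, 2.91 and 4.11 CPM at 10–12 m (log2 fold change −0.52 ± 0.22, SE, edgeR adjusted p = 0.45). Aqr, an intron-binding helicase, had 6.61 to 7.22 CPM and 4.18 to 6.57 CPM and overlapped without TMM, and Ppil3, a cyclophilin, had 6.95 to 7.78 CPM and 6.15 to 6.42 CPM. The exons of Tfip11 and Ppil3 overlap those of genes on the opposite strand. Ccdc12, an accessory factor with few reads, had 2.63, 2.80 and 2.73 CPM at 6–8 m and 2.60, 2.28 and 4.81 CPM at 10–12 m, where sample 3 of the old group alone set the mean difference. The study's own table for these ages holds this gene at a higher read level than the deposited counts. The reason could not be settled from the files, so its values are uncertain.

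The exon junction complex marks spliced mRNA for export and surveillance. All 20 genes of this list were tested, of which 14 had a log2 fold change above 0 (median 0.08) and 2 an unadjusted p-value below 0.05, both higher (10.0%, beside 10.6% of all genes). Magoh, a core subunit, had the highest level of all listed genes per kilobase of exon after Rbm38 (259 CPM per kb). In CPM it stood at 164, 175 and 211 at 6–8 m and 198, 216 and 232 at 10–12 m, where the third 6–8 m sample reached the old range.

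SR proteins lay evenly on both sides of 0. Of 16 genes tested (of 18), 8 were above 0 and 8 below (median −0.04), and the summed level was 1085 to 1143 CPM at 6–8 m and 1083 to 1128 CPM at 10–12 m. Sfswap, an SR-related regulator that controls its own splicing, had the smallest p-value of the list and did not overlap between groups, with 15.2, 17.1 and 17.3 CPM at 6–8 m and 14.2, 13.02 and 11.6 CPM at 10–12 m (log2 fold change −0.35 ± 0.14, SE). Rbm39, which works with U2AF, had the highest CPM, at 143, 199 and 224 CPM at 6–8 m and 189, 178 and 212 CPM at 10–12 m, with sample 1 of the 6–8 m group the lowest of the 6. Srsf5, a small SR protein, had 72.9, 76.3 and 60.4 CPM at 6–8 m and 58.6, 57.6 and 74.0 CPM at 10–12 m. In each group its sample 3 lay with the other group.

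Among hnRNPs and related RNA-binding proteins (28 of 31 tested), 11 genes were above 0 and 17 below (median −0.04). Ybx1, described above, belongs to this list. Matr3, a nuclear matrix protein that represses exons and introns, had the highest CPM of it, with 798, 741 and 625 CPM at 6–8 m and 621, 611 and 623 CPM at 10–12 m. The 3 old samples were nearly identical, and the third 6–8 m sample was at their level. The log2 fold change was −0.22 ± 0.09 (SE, edgeR adjusted p = 0.45). Ptbp1, the polypyrimidine tract binding repressor, had 40.8, 27.2 and 26.6 CPM at 6–8 m and 28.1, 35.2 and 25.8 CPM at 10–12 m, and Hnrnpm had 7.57 to 9.26 CPM and 7.63 to 8.02 CPM. Both overlapped between groups.

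Sequence-specific regulators (27 of 38 tested) had 18 genes above 0 and 9 below (median 0.015, beside 0.013 for all genes). Rbm38, an RNA-binding protein that acts on splicing and mRNA stability, had the highest level per kilobase of exon of all listed genes (268 CPM per kb). It stood at 716, 616 and 736 CPM at 6–8 m and 925, 951 and 664 CPM at 10–12 m, where 2 old samples were above and 1 within the younger range (log2 fold change 0.30 ± 0.12, SE, edgeR adjusted p = 0.45). Wtap, a subunit of the complex that methylates adenosine in mRNA, had the most reads, with 1460, 1467 and 1593 CPM at 6–8 m and 1365, 1441 and 1760 CPM at 10–12 m. Khdrbs1 (Sam68), a STAR family regulator, had 13.3 to 15.7 CPM at 6–8 m and 12.3 to 16.2 CPM at 10–12 m, with a log2 fold change of 0.00 and an interval of −0.32 to 0.32. Of the 11 regulators that were not tested, none had more than 14 reads in a library, among them Esrp2, Mbnl2, Msi1 and Rbm24.

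Of the 13 kinases, cyclins and other modifiers tested, 4 had an unadjusted p-value below 0.05 (30.8%, beside 10.6% of all genes), 2 higher and 2 lower. Nsrp1 (chr11:77044292-77078435), a nuclear speckle protein that regulates splice site choice, had 190, 182 and 227 CPM at 6–8 m and 221, 270 and 276 CPM at 10–12 m (log2 fold change 0.36 ± 0.11, SE, edgeR adjusted p = 0.45). Clk1 (chr1:58410189-58424066), a kinase that phosphorylates SR proteins, had 180, 188 and 210 CPM at 6–8 m and 230, 231 and 215 CPM at 10–12 m. Its groups did not overlap, though the third samples approached each other, and they overlapped under both other scalings. Srpk1, the other main SR protein kinase, had 603, 550 and 515 CPM at 6–8 m and 485, 490 and 531 CPM at 10–12 m, where only the third sample of each group lay within the range of the other. Dyrk1a, which phosphorylates splicing factors in speckles, was lower in every old sample, at 82.9 to 92.0 CPM against 74.5 to 79.8 CPM.

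The smaller lists held few genes each. In the SMN complex, which loads Sm rings onto snRNAs, 3 of 8 genes were above 0. Gemin5, its snRNA-binding subunit, had 1.47, 1.61 and 1.84 CPM at 6–8 m and 0.74, 1.14 and 0.77 CPM at 10–12 m, a log2 fold change of −0.89 ± 0.37 (SE, edgeR adjusted p = 0.45) from at most 33 reads in a library. Strap, with the highest CPM of this list, had 27.4 to 33.6 CPM and 30.1 to 42.7 CPM. Of the minor spliceosome, which removes the rare U12-type introns, 5 of 8 genes were tested. Rnpc3, a protein of the U11/U12 snRNP, had 10.2 to 15.9 CPM and 10.2 to 13.1 CPM, and Zrsr2, which recognises their 3′ splice sites, had 43.0 to 46.2 CPM and 44.98 to 48.7 CPM. All these groups overlapped except those of Gemin5.

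Further roles were represented by a few genes each. Pabpn1, the nuclear poly(A)-binding protein, had 3.49, 2.10 and 3.50 CPM at 6–8 m and 4.13, 4.34 and 5.65 CPM at 10–12 m (log2 fold change 0.61 ± 0.25, SE), and its exons overlap those of Gm20521 on the same strand. Ddx47, a nucleolar helicase, had 6.66 to 8.51 CPM and 9.28 to 10.2 CPM without overlap, whereas Ddx5, a helicase and transcription cofactor with far more reads, had 150 to 166 CPM and 143 to 162 CPM. Of the genes for tRNA splicing, Rtcb, the RNA ligase, had 1.96 to 2.69 CPM and 2.16 to 2.86 CPM, and Trpt1 had 0.84 to 1.53 CPM and 0.63 to 0.91 CPM. Of the 66 genes tested in no list, Pik3r1, the regulatory subunit of PI 3-kinase, had 200, 206 and 188 CPM at 6–8 m and 179, 167 and 150 CPM at 10–12 m (log2 fold change −0.26 ± 0.09, SE, edgeR adjusted p = 0.45). Zranb2, a zinc finger protein that binds 5′ splice sites, had 30.0, 33.8 and 32.3 CPM at 6–8 m and 38.9, 40.9 and 34.8 CPM at 10–12 m.

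**Figure D4:**
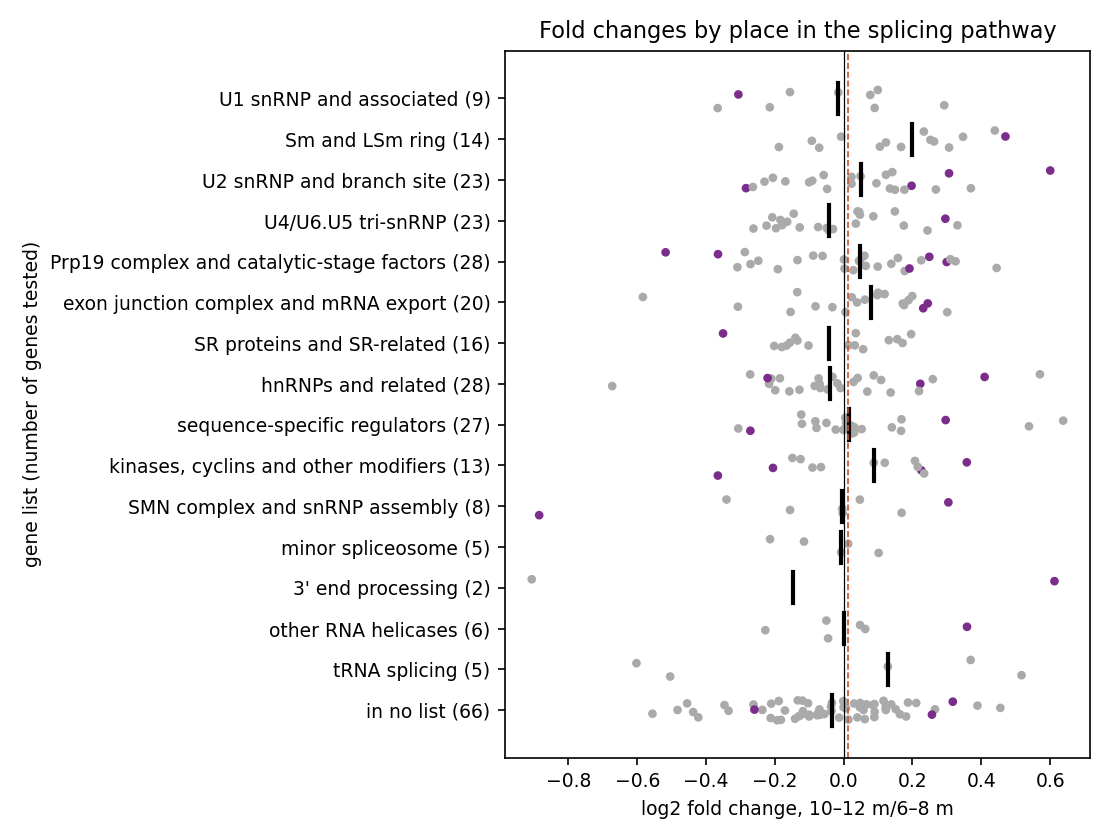
Log2 fold change (10–12 m/6–8 m) of the genes tested in each list, with the list's median as a black bar, the median of all genes tested as a dashed line and genes with an unadjusted p-value below 0.05 in purple. List medians lie between −0.15 (2 genes of 3′ end processing) and 0.20 (14 Sm and LSm genes), and every list has genes on both sides of 0.

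The remaining 40 of the 333 genes were not tested because of few reads. Of these, 5 had no read in any of the 6 libraries (A1cf, Dqx1, Myod1, Pabpc5 and Wt1), which allows up to 3 reads in a library for counting error alone, and no other untested gene had more than 21 reads in a library. Rbm3, the cold-inducible RNA-binding protein, had 0, 2 and 0 reads at 6–8 m and 12, 6 and 1 reads at 10–12 m. Clasrp, a CLK4-associated SR-related protein, had 4, 7 and 8 reads at 6–8 m and 3, 0 and 0 reads at 10–12 m. Both were singled out after their values were seen, and at such counts no statement beyond the reads themselves is possible.

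The third samples decided how many genes passed. Without the third 6–8 m sample, 5 of 294 genes (1.7%) reached an adjusted p-value under 0.05 in edgeR, all of them higher at 10–12 m, namely U2af1l4 (log2 fold change 0.94), Snrpg (0.71), Npm1 (0.49), a nucleolar chaperone, Ubl5 (0.47) and Nsrp1 (0.46). Without the third 10–12 m sample it was 1 gene, Rbm38 (0.44). Without the third sample of both groups, a choice made after seeing how the libraries lay, 23 of 294 genes (7.82%) reached it, 14 higher and 9 lower, but 0 of these exceeded 1 in log2 fold change. The samples removed were those furthest from their groups over the genes above 20 CPM, so the SEs of this fit understate the spread between samples. With the other 4 libraries alone, Rbm38 had a log2 fold change of 0.49 ± 0.06 (SE, n = 2 per group), Nsrp1 of 0.40 ± 0.08, Clk1 of 0.33 ± 0.06 and Sf3b1 of 0.29 ± 0.06. On the other side Matr3 had −0.32 ± 0.05, Srpk1 −0.24 ± 0.05, Srsf5 −0.36 ± 0.09 and Snrpd3, an Sm protein, −0.52 ± 0.10. Snrpd3 stood at 95.5, 79.7 and 59.4 CPM at 6–8 m and 63.6, 58.6 and 83.8 CPM at 10–12 m, so that the third sample of each group lay within the range of the other.

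**Figure D5:**
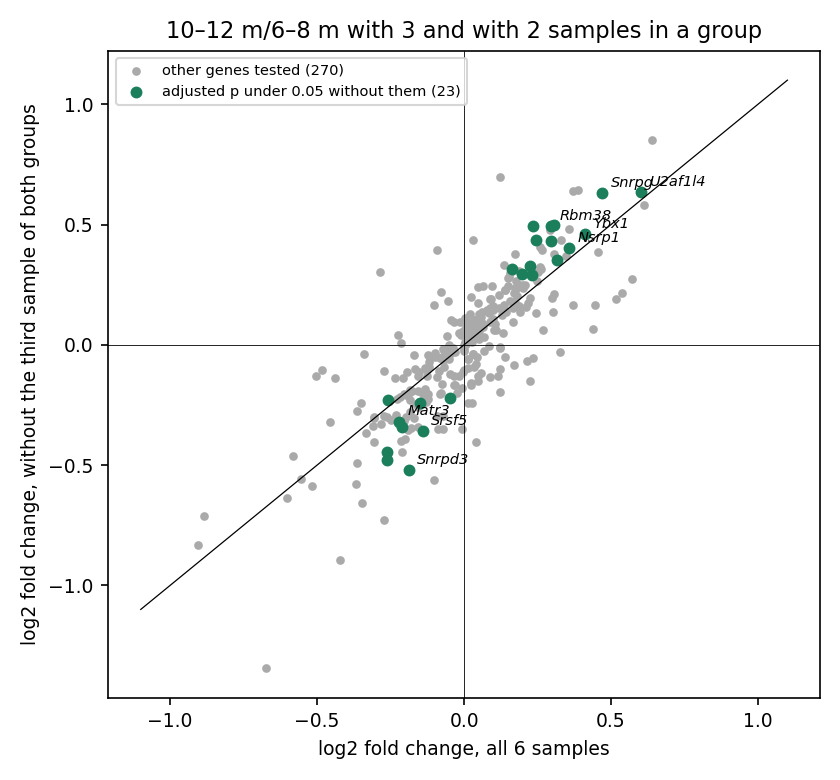
Log2 fold change (10–12 m/6–8 m) of the genes tested with all 6 samples (horizontal) and without the third sample of both groups (vertical), with the 23 genes that had an adjusted p-value below 0.05 in the smaller comparison in green and a line of equality. Both axes share 4 libraries and the green genes were chosen by the vertical one, so that their signs on the axes are not independent. Rbm38 lies at 0.30 and 0.49 and Matr3 at −0.22 and −0.32.

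Exon length moved with the difference to a small extent. When the genes tested were divided into 4 bins by the summed length of their exons, the median log2 fold change was 0.06 in the shortest (770 to 2924 bases), 0.03 in the second, 0.00 in the third and −0.01 in the longest (7461 to 25884 bases). The shortest bin held 75 genes and the longest 73. Of the 20 higher genes with an unadjusted p-value below 0.05 (6.83% of all), 10 were in the shortest bin and 2 in the longest. Of the 11 lower ones (3.75% of all), 1 was in the shortest and 7 in the longest. The Sm and LSm genes, with a median of 2106 bases, are the shortest of the larger lists. Within single libraries the short genes, relative to the long ones, stood at −0.16, −0.06 and 0.03 on the log2 scale at 6–8 m and at −0.02, 0.02 and 0.16 at 10–12 m. The third sample was the highest of each group and the groups overlapped (exact permutation p = 0.3). The part of exon length in the result of any one gene was not tested.

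With the 8–10 w samples as the youngest age, the later step (10–12 m/6–8 m) was compared with the earlier one (6–8 m/8–10 w) in a fit of all 9 MII samples. The youngest mice were virgins and the others retired breeders, so age and breeding history cannot be told apart in the earlier step. The same holds for the difference between the steps. Both steps share the 6–8 m samples, so a gene whose 6–8 m values are low shows a lower earlier and a higher later step. The difference between steps reached an adjusted p-value under 0.05 for 0 of 298 genes in edgeR, with 35 genes (11.7%) at an unadjusted p-value below 0.05 there and 41 in DESeq2. It was led by Zranb2, with 42.8 ± 2.74, 31.2 ± 1.87 and 37.2 ± 3.00 CPM (mean ± SD, n = 3) from the youngest to the oldest group, and by Tra2b, an SR-like splicing activator, with 60.4 ± 4.705, 46.3 ± 1.598 and 52.1 ± 3.64 CPM. Rbm7, an RNA-binding subunit of the nuclear exosome targeting complex, had 261 ± 11.7, 192 ± 18.7 and 199 ± 3.78 CPM, and Clk1 had 220 ± 11.7, 188 ± 15.2 and 219 ± 8.45 CPM. In each of these 4 genes the 6–8 m mean was the lowest of the 3 ages. In the earlier step itself 4 of 298 genes (1.34%) had an adjusted p-value below 0.05, and all 4 fell: Rbm7 by 0.44, Zranb2 by 0.46, Srsf3 by 0.40 and Srsf10 by 0.33 on the log2 scale. Most of these calls were close to the threshold, with an edgeR adjusted p of 0.013 for Rbm7 and 0.045 to 0.049 for the other genes. With DESeq2 8 genes passed, but 1 did with the replicate number as a block, 0 without TMM, and 0 to 8 with 1 sample left out. Without TMM the log2 fold changes were −0.33 (Rbm7), −0.35 (Zranb2), −0.29 (Srsf3) and −0.22 (Srsf10). At an unadjusted p-value below 0.05 in edgeR, 53 genes were then higher and 8 lower, in place of 21 and 26. The later steps of these 4 genes were 0.05 (Rbm7), 0.26 (Zranb2), 0.06 (Srsf3) and 0.01 (Srsf10). Rbm7 and the SR proteins Srsf3 and Srsf10 thus stayed near the 6–8 m level in the oldest group.

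Between MII oocytes and 2-cell embryos, which come from other samples (2 at each age), the age difference of a gene was compared in one fit. The difference between stages reached an adjusted p-value under 0.05 for 0 of 287 genes in edgeR, and 7 (2.44%) had an unadjusted p-value below 0.05 there and 10 in DESeq2. The study made its 2-cell libraries in 2 separate experiments, which the fit left out. Whether the replicate number marks the experiment is not given in the sources used here. With that number as a block within each stage, the edgeR counts were 0 and 5. Gemin5 was the first of the 7 genes, with a log2 fold change of −0.89 in MII oocytes and 0.06 in 2-cell embryos (19.6 and 21.8 FPM, fragments scaled to library size with TMM factors, at 6–8 m, 21.7 and 22.0 at 10–12 m). Prpf19, the name-giving subunit of the Prp19 complex, had 0.31 in MII oocytes and −1.19 in 2-cell embryos, from 41 and 21 fragments at 6–8 m and 4 and 18 at 10–12 m. Its difference between stages of 1.50 was 0.97 without the first and 2.67 without the second embryo sample at 10–12 m, where the lone sample left is assumed to vary like the other groups. Sugp2, a nuclear RNA-binding protein, had −0.31 and 1.02 from at most 15 fragments in an embryo sample, and Ddx47 had 0.36 and −0.24. The half-width of the 95% interval of a stage difference had a median of 0.57, so differences smaller than this were mostly not detectable. Of the 36 genes without overlap between the MII groups, 20 (55.6%) had the same sign in 2-cell embryos, beside 150 of all 287 genes (52.3%). Ybx1, with 0.41 in MII oocytes, had −0.04 in embryos.

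The study also measured the proteins of MII oocytes and lists those that differed among all its age groups, the youngest included. That list was set by protein and not by these libraries, and it is not a list of differences between 6–8 m and 10–12 m alone. Of the listed genes, 45 encode a protein on it, of which 42 were tested. Of these, 18 were above 0 and 24 below, with a median log2 fold change of −0.05 beside 0.01 for all genes. In all, 3 had an unadjusted p-value below 0.05, 2 higher and 1 lower (7.14%, beside 10.6% of all genes), and 0 an adjusted one. In 1 of the 42 genes every old sample was higher and in 5 every one was lower (2.38% and 11.9%, beside 5.46% and 6.83% of all genes). Their summed level was 2960, 2991 and 2969 CPM at 6–8 m and 2917, 2873 and 2975 CPM at 10–12 m, with overlap of the groups.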

How the data were processed

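MII oocytes at 6–8 m and at 10–12 m (3 samples each, replicate numbers from the titles) were compared. The authors trimmed the reads with Cutadapt, used STAR and the mm10 genome for alignment and deposited read counts from HTSeq of 333 genes per sample, without normalization, together with tallies of unassigned reads. Per the labels the tools are STAR and HTSeq. The study's methods state the STAR version and default parameters, while the HTSeq version, the annotation and the strand setting are not given in the sources used here. For 2-cell embryos the authors deposited fragment counts per RefSeq transcript and the same counts as a signal scaled to library size (FPM). The counts of the longest transcript were used for tests, and the FPM values printed here were recomputed from them with TMM factors.

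Reads on no listed gene and ambiguous reads were added to those on listed genes as library size and made up all but 1.82% to 1.93% of it, so that they enter scaling but no test. Counts were scaled by TMM and filtered (minimum count 10, total 15), and tested with edgeR 4.0.16 (quasi-likelihood F test) in R 4.3.3, with Benjamini-Hochberg adjustment over the genes tested, a common biological coefficient of variation of 0.111 and thresholds of 1 for log2 fold change and 0.05 for the adjusted p-value. Standard errors and 95% intervals were derived from the F statistic. Library sizes were 14450080 to 18722138 reads in the 6 samples compared and up to 19004938 in the 8–10 w samples. As alternatives, DESeq2 1.42.0, edgeR with DESeq2 size factors, library totals without TMM, the sum over listed genes, no filter, all 9 MII samples, a replicate block, an adjusted p-value of 0.1 and each sample left out were run. The block in all 9 samples, the removal of the third sample of both groups, non-overlap under other scalings and the alternatives for the 6–8 m/8–10 w step were added after seeing the data. Distances used log2(CPM + 0.5). Replicates of a group differed by more than sampling noise, so each was counted as 1 sample. The script was tested on simulated data. Gene coordinates, exon lengths and overlaps are those of GENCODE vM21 (all 333 symbols matched). Tables and figures were made with Python 3.11.15, pandas 2.3.3, NumPy 2.4.6, SciPy 1.17.1 and matplotlib 3.10.9.

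The comparison, the 15 gene lists and the tests were chosen with earlier results of these data known. Genes named are the 6 higher and 6 lower with the smallest p-values among those without overlap, the smallest p-value and highest CPM of each list, genes named by the study, the 4 leading genes of the step and stage tests, and the 5 narrowest and 5 widest intervals. Other genes were chosen after their values were seen. A gene that this rule names is not reported here.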

Additional observations from a re-analysis of the deposited data

How the results depend on the processing

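No setting gave a gene past both thresholds. The count at an adjusted p-value under 0.05 stayed at 0 with DESeq2, other scalings, no filter, all 9 MII samples or a threshold of 0.1, was 0 to 5 with 1 sample left out (5 without sample 3 at 6–8 m, 1 without sample 3 at 10–12 m) and 23 without the third sample of both groups. The count at an unadjusted p-value under 0.05 (31) was 13 to 47 with 1 sample left out (13 without sample 1 or 2 at 6–8 m, 17 without sample 2 at 10–12 m) and 75 without both. The difference between the steps of age gave 0 to 1 gene (adjusted) and 21 to 46 (unadjusted), and that between stages 0 and 3 to 20, with 1 sample left out (20 without the second 2-cell sample at 6–8 m). Without TMM the unadjusted step calls split into 6 higher and 33 lower in place of 22 and 13, with a median shift of −0.11 on the log2 scale. The 4 genes of the 6–8 m/8–10 w step were 8 with DESeq2, 0 without TMM, 1 with the replicate block and 0 to 8 with 1 sample left out (0 without sample 2 or 3 at 8–10 w or sample 1 or 3 at 6–8 m, 1 without sample 1 at 8–10 w or sample 1 or 2 at 10–12 m, 2 without sample 2 at 6–8 m, 8 without sample 3 at 10–12 m). The count of genes without overlap (36) was 33 and 37 under other scalings. The cause of these moves was not tested.

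The median log2 fold change of all genes (0.01) was −0.013 to 0.014 with 1 sample left out, 0.0044 without the filter and −0.018 without the third sample of both groups. With 1 sample left out, list medians were −0.054 to 0.071 (U1), 0.068 to 0.32 (Sm and LSm), −0.0078 to 0.17 (U2), −0.076 to −0.022 (tri-snRNP), 0.0093 to 0.080 (Prp19), 0.030 to 0.12 (exon junction complex), −0.080 to −0.011 (SR proteins), −0.060 to 0.0024 (hnRNPs), −0.014 to 0.049 (sequence-specific regulators), −0.078 to 0.12 (kinases), −0.10 to 0.026 (SMN), −0.12 to 0.049 (minor spliceosome), −0.083 to 0.10 (other helicases), −0.018 to 0.20 (tRNA splicing), −0.075 to −0.022 (no list) and −0.068 to −0.0012 (mRNAs of differential proteins). Without the filter the minor spliceosome had −0.17 and tRNA splicing 0.28. Without the third sample of both groups the median was 0.13 for the exon junction complex, −0.040 for sequence-specific regulators, −0.068 for kinases, −0.10 for SMN and −0.017 for the mRNAs of differential proteins.

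Of the 54 named genes tested, 40 kept the sign of their log2 fold change in every setting that gave a value, and 14 did not. With 1 sample left out the log2 fold change ran from −0.16 to 0.42 for Ccdc12, −0.99 to 0.82 for Cdc5l, −0.091 to 0.010 for Ddx5, −0.083 to 0.11 for Khdrbs1, −0.73 to 0.073 for Ppil1, −0.22 to 0.14 for Ptbp1, −0.14 to 0.17 for Rbm39, −0.022 to 0.55 for Rbmxl1, −0.018 to 0.29 for Rtcb, −0.57 to 0.46 for Scnm1, −0.023 to 0.086 for Snrnp27, −0.0056 to 0.26 for Strap and −0.10 to 0.087 for Wtap. Without the third sample of both groups the sign turned for Ccdc12 (−0.15), Ppil1 (0.30), Rnpc3 (0.0062), Scnm1 (−0.24), Snrnp27 (−0.053), Strap (−0.083) and Wtap (−0.060). Khdrbs1 was at 0.0014 with DESeq2 or its size factors and at 0.0012 without TMM.

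With the replicate number as a block (replicate block), 0 genes reached an adjusted p-value under 0.05 and 31 an unadjusted one, or 35 with all 9 MII samples, 36 for the steps and 5 for the stages. Deviations of same-numbered MII samples correlated across genes at 0.23, −0.10 and 0.14. Not every sample matched best with its own number, and the file names carry other numbers. Short genes relative to long ones stood at −0.169, −0.103 and −0.0997 in samples 1, 2 and 3 at 8–10 w. They rose with the sample number in the other 2 groups too. Whether same-numbered MII samples share more than a number cannot be told from these values. The 2-cell samples, from 2 separate experiments, were not correlated in this way. Depth limits the 43 genes below 2 CPM, whose intervals had a median half-width of 0.88.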
